A study of Caenorhabditis elegans with 2 samples.

Results

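The nuclear receptor gene nhr-12 lies next to the strongest peak of CEH-30 chromatin immunoprecipitation sequencing (ChIP-seq) in late Caenorhabditis elegans embryos. It was chosen by that peak's signal in the optimal list, so the signal and rank of the peak are given as a description, with no test. The gene is 1 of 19973 protein-coding genes of the nuclear chromosomes in the annotation. All peak summits within the gene and 5000 bp to both sides were taken, which gave 3 of the 545 optimal peaks, 6 of the 30000 pooled peaks, 5 of the 30000 replicate 1 peaks and 11 of the 17926 replicate 2 peaks. Both samples were mixed-sex late embryos of strain OP120, with the genotype unc-119(ed3) III; wgIs120, in which an inserted transgene supplies eGFP-tagged CEH-30. They were 2 biological replicates of 1 group, there was no second strain, stage or treatment, and the control library named in the labels was not analysed here. Whole embryos were used, so a peak averages over all cell types, and the cells that carried the tagged protein are not known from these files. No strain without the transgene was analysed here, so binding of the tagged protein cannot be told apart from other recovery of the same chromatin.

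Nuclear hormone receptors are transcription factors with a zinc-finger DNA-binding domain and, in most members, a ligand-binding domain. The family is greatly expanded in nematodes, and the ligands and targets of most of its worm members are not known. CEH-30 is a homeodomain transcription factor of the BarH1 family, known for promoting the survival of the cephalic companion neurons of males. In ChIP-seq, DNA fragments bound to the tagged protein are recovered and sequenced, and a peak marks a place where fragments pile up, with the summit at its highest point.

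The summit of the nhr-12 peak lay in intergenic sequence at V:10084232 on the ce11 assembly, and 300 bases around it, V:10084082-10084381, are shown because the strongest signal of the series comes from them. They are given 5′ to 3′ on the plus strand, so the nhr-12 gene, which is on the minus strand, begins beyond the left end. Capitals mark the words of a list of 11 that were found in them.
nhr-12 peak: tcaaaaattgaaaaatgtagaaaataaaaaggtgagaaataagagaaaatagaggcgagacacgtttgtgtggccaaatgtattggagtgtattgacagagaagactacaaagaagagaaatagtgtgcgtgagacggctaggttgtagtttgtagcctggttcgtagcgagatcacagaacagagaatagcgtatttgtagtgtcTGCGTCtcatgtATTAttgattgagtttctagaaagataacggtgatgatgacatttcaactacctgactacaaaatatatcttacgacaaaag
The 11 words, searched on both strands, included the homeodomain core TAAT, its longer form TAATTG, the palindrome TAATTA and the related word TAAACG. The others were GACGCA, frequent at summits in earlier results of these data, likewise GCGCCA, the nuclear receptor half-site AGGTCA, the E-box CACGTG, the alternating word GAGAGA, the TATA word TATAAA and the splice acceptor word TTTCAG. The longer form and the palindrome contain the core, so a match to either counts for the core as well. Within 50 bp of the nhr-12 summit none of the 11 words was present. The same was true of 150 of the 545 optimal summits, or 27.5%, and the median optimal summit held 1 of the words.

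Within the 300 bases there were 2 words, both on the minus strand and both to the right of the summit. GACGCA lay at V:10084288-10084293, which is 56 to 61 bp from the summit, and TAAT lay at V:10084300-10084303, which is 68 to 71 bp from it. The median optimal window of that length held 3 of the words. GACGCA occurred in 29.4% of the 300-base windows at optimal summits and in 8.95% of windows of the same length centred 183 bp upstream of the 5′ ends of protein-coding genes, called promoter windows here. TAAT is common in this genome, with a match in 82.0% of the optimal windows and 95.6% of the promoter windows. In windows of 101 bases, GACGCA was present at 18.7% of optimal summits, 3.6% of pooled summits and 3.34% of promoters, and TAAT at 33.4%, 61.2% and 68.1% of them. The word GACGCA was listed because it was frequent at summits in earlier results of these data, so its higher share at optimal summits was known beforehand. A match describes letters in a window and does not show a site.

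The signal of a peak is the value that the authors deposited with it, and its scale depends on the library or pool on which it was called. The nhr-12 peak had a signal of 137.7 in replicate 1, 661.1 in replicate 2 and 791.7 in the pooled list. It was the second strongest peak of replicate 1 and the strongest of replicate 2 and of the pool. Within each list it stood 17.9, 66.9 and 58.7 times above the list's median signal, which was 7.7 in replicate 1, 9.89 in replicate 2 and 13.5 in the pool. In the optimal list it was 16.3 times the median of 48.5, and it made up 2.58% of the summed signal of all 545 peaks.

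The lead over the next peak differed between the replicates. In replicate 2 the nhr-12 peak was 5.38 times as strong as the next highest peak, and in the pool 3.18 times, 791.7 against 249. In replicate 1 it was below the highest other peak, at 0.764 of that peak's 180.3. The lead of the pooled peak thus has a counterpart in replicate 2 and none in replicate 1.

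**Figure D1:**
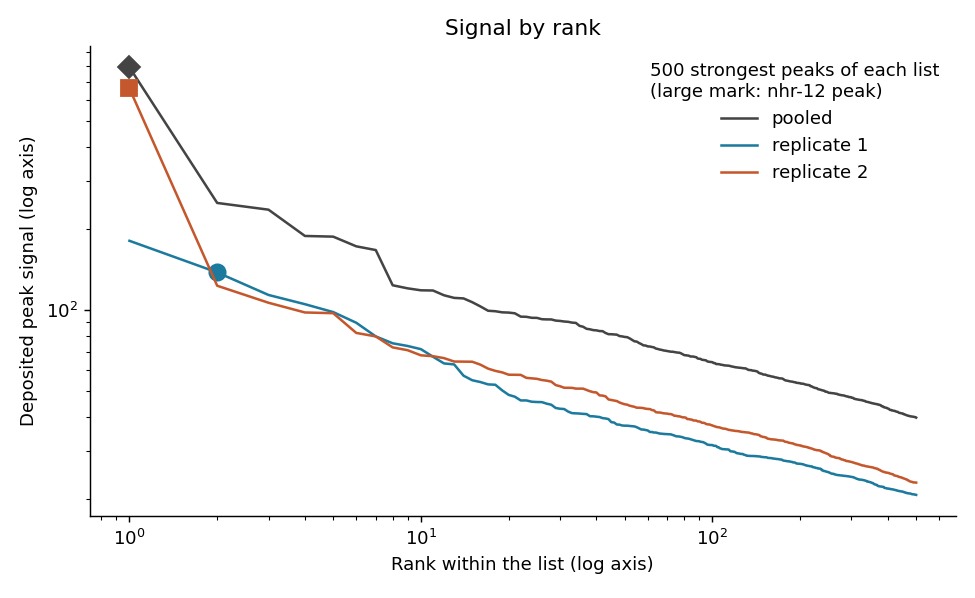
Signal of the 500 strongest peaks of the pooled, replicate 1 and replicate 2 lists against rank, both on log axes, with the nhr-12 peak as a large mark. The nhr-12 peak is apart from the curve in the pool (791.7) and in replicate 2 (661.1) and lies on the curve, at rank 2, in replicate 1 (137.7).

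Over the 538 optimal peaks that overlapped a peak of both replicates by at least 1 bp, the ratio of replicate 2 to replicate 1 signal was 4.8 for the nhr-12 peak and had a median of 1.15, with the 10th and 90th percentiles at 0.643 and 2.27. The ratio was higher at 6 peaks, and the highest was 7.67. Signals over these peaks ran from 6.02 to 180.3 in replicate 1, with a median of 23.3, and from 8.81 to 661.1 in replicate 2, with a median of 26.8. Only 2 libraries exist, so the spread of the ratio at this peak beyond these libraries is not known.

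**Figure D2:**
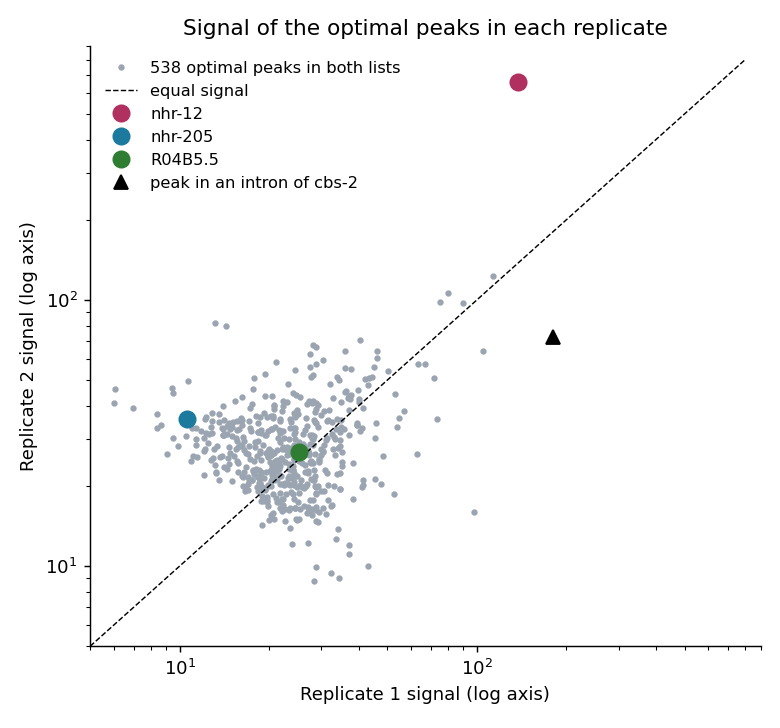
Signal in replicate 2 against replicate 1 for 538 optimal peaks, on log axes, with the line of equal signal. The nhr-12 peak (137.7 in replicate 1, 661.1 in replicate 2) is far above the line, the nhr-205 peak (10.62, 35.76) is also above it, the R04B5.5 peak (25.21, 26.83) is close to it, and the peak in an intron of cbs-2 (180.3, 72.6) is below it.

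The replicates placed the peak at nearly the same position. The replicate 2 summit was at the base of the pooled summit and the replicate 1 summit lay 15 bp to its right, farther from nhr-12. The peak spanned V:10084116-10084327, or 212 bp, in replicate 1, V:10084071-10084403, or 333 bp, in replicate 2 and V:10084065-10084406, or 342 bp, in the pool. Nearly all peaks of a list share a width, 350 bp in replicate 1, 330 bp in replicate 2 and 344 bp in the pool. The nhr-12 peak was among the 8, 5 and 10 peaks of these lists whose width differed, and 9 of the 10 such pooled peaks ranked 14 or higher.

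The gene nhr-12 (WBGene00003611) occupies V:10082133-10084049 on the minus strand, 1917 bp, with 3 annotated transcripts of 6 exons each. The pooled summit was 183 bp upstream of the 5′ end of transcripts R04B5.4b.1 and R04B5.4c.1, 189 bp upstream of that of R04B5.4a.1 and 210 bp upstream of the start codon that all 3 share. The near edge of the peak was 16 bp from the gene. On the other side, R04B5.6 (V:10085164-10087363, plus strand) is transcribed away from nhr-12. RefSeq describes it as a sorbitol dehydrogenase, an enzyme that oxidises sorbitol to fructose. Its 5′ end was 932 bp from the summit, its start codon 1049 bp, and its nearest peak edge 758 bp.

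The 2 genes thus share a divergent promoter region, V:10084050-10085163, of 1114 bp, with the strong peak at the nhr-12 end. Of 4242 gaps between divergent protein-coding neighbours, 209 held an optimal summit, which is 4.93%. The nhr-12 gap was longer than 42.5% of all such gaps, whose median was 1455 bp, and close to the median of 1152 bp of the gaps with a summit. A weak pooled peak lay at the R04B5.6 end of the same gap, with its summit at V:10085147, 17 bp upstream of R04B5.6. In the pool the nhr-12 peak had a signal of 791.7 and this one 16.38, at rank 7982. Replicate 2 listed a peak of 14.9, rank 2005, there, with its summit in the 5′ UTR of R04B5.6, and replicate 1 listed none that overlapped.

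Across the whole window of 11917 bp the signal was concentrated at the nhr-12 promoter. That the peak there led the window in the pool was fixed by the choice of the strongest optimal peak. Besides that peak, 2 summits were in the optimal list, 1 upstream of nhr-205 and 1 upstream of R04B5.5. The gene nhr-205 (V:10080083-10081776, minus strand), which encodes another member of the nuclear hormone receptor family, lies downstream of nhr-12 on the same strand. A summit at V:10081843 was between the 2 receptor genes, 67 bp upstream of nhr-205, with a signal of 10.62 in replicate 1 (rank 5241), 35.76 in replicate 2 (rank 118) and 48.52 in the pool (rank 272). Its ratio of replicate 2 to replicate 1 was 3.37, above the 90th percentile of 2.27, as was the 4.8 of nhr-12.

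The gene R04B5.5 (V:10087480-10089002, plus strand), which RefSeq also describes as a sorbitol dehydrogenase, follows R04B5.6 on its strand. The third optimal summit, V:10087331, was 149 bp upstream of R04B5.5 and within the 3′ UTR of R04B5.6. Its signal was 25.21 in replicate 1 (rank 245), 26.83 in replicate 2 (rank 317) and 50.75 in the pool (rank 232). Its ratio of 1.06 was near the median of all optimal peaks, so the high ratio at nhr-12 was not shared by every peak of the window. Having 3 or more optimal summits within a gene and 5000 bp to both sides was a property of 17 of 19973 protein-coding genes, or 0.0851%. The gene nhr-12 was chosen for an optimal peak, so it held at least 1 by choice, and the share among genes with at least 1 was not computed. Windows of neighbouring genes overlap, so the same summits can count for more than 1 gene. The most for any gene was 4.

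**Figure D3:**
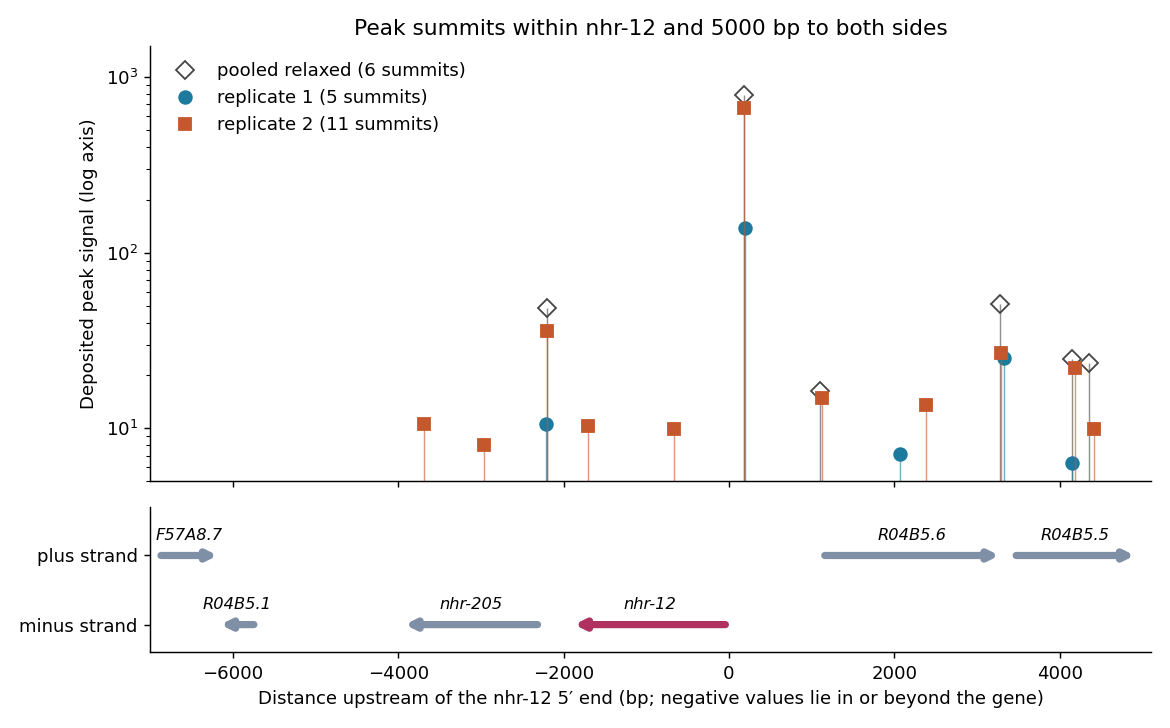
Signal on a log axis of every pooled, replicate 1 and replicate 2 summit within nhr-12 and 5000 bp to both sides, against distance from the nhr-12 5′ end, with protein-coding genes below as arrows by strand. The nhr-12 peak, at 183 bp, reaches 791.7 in the pool, and the next highest pooled peak, at R04B5.5, reaches 50.75.

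The remaining summits were weak. In the pool, summits at V:10088200 and V:10088401, both in coding exons of R04B5.5, had signals of 24.79 and 23.63. Both overlapped the same replicate peaks, of 6.319 in replicate 1 and 22.1 in replicate 2, so they are not separate in the replicates. The ratio of replicate 2 to replicate 1 was 3.5 there. The replicate 1 signal was 0.821 times that list's median and near its lowest of 5.61. These 2 are not optimal peaks, and the spread of the ratio over pooled peaks was not computed. Replicate 1 listed a further peak of 7.113 in a coding exon of R04B5.6. Replicate 2 listed peaks in coding exons of nhr-12 (10.36 and 9.951), nhr-205 (10.54 and 8.04), R04B5.6 (13.5) and R04B5.5 (9.94). The peaks inside nhr-12 itself therefore occurred in replicate 2 alone, at 1.05 and 1.01 times that list's median of 9.89. Within the window, no summit of any of the 4 lists fell in R04B5.1 or F57A8.7, and the piRNA gene 21ur-13441, which lies within nhr-205 on the same strand, held none within it.

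At the edges of the window, the outermost pooled summit inside was 4352 bp from nhr-12, with a signal of 23.63. The nearest outside was 7450 bp away, near R04B5.11, with a signal of 27.81. For the optimal list the summit nearest the edge inside was 3282 bp from the gene, with a signal of 50.75, and the nearest outside was 27056 bp away, near yif-1, with a signal of 45.27.

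The summit of nhr-12 was richer in G and C than the windows 300 bp to its left and right. Farther away the same share recurred, centred 1000 bp and 640 bp to the left and 960 bp to the right. G and C made up 43.6% of the 101 bases at the summit, against a median of 48.5% at the 545 optimal summits, and 20.9% of those were lower. In windows 300 bp to the left and right the nhr-12 values were 37.6% and 28.7%, and the optimal medians 35.6% and 34.7%. The summit exceeded the mean of its flanks by 10.4 percentage points at nhr-12 and by a median of 11.9 over the optimal peaks. The nhr-12 window held 5 CG dinucleotides, and the optimal median was 7. The lowest value within 1000 bp was 16.8%, centred 160 bp to the left of the summit, close to the 5′ end of the gene.

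**Figure D4:**
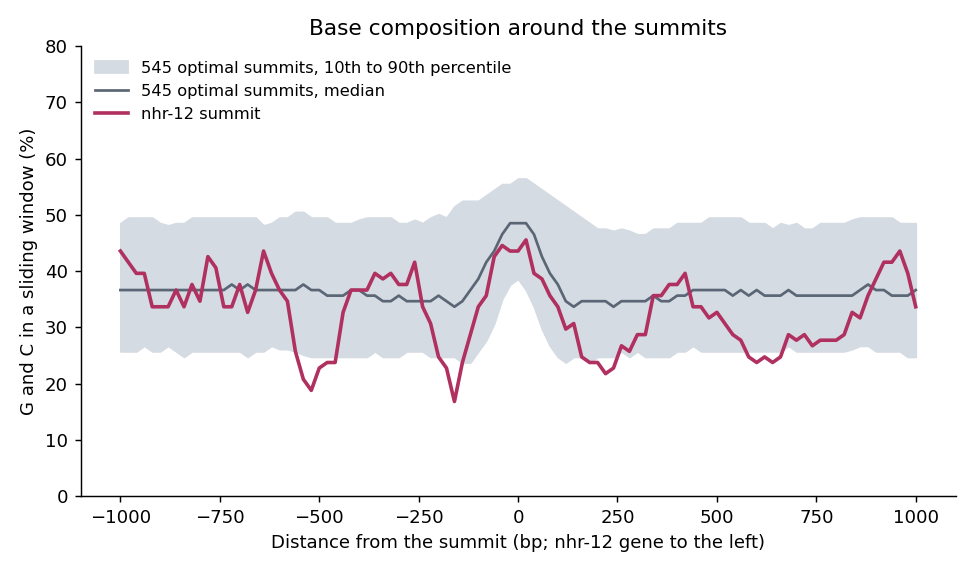
Percent of G and C in windows of 101 bases, every 20 bp, within 1000 bp of the nhr-12 summit, with the median and the 10th to 90th percentiles of the 545 optimal summits. The nhr-12 line peaks at 45.5% near the summit, within the range of the others. It drops below that range on both sides, to 16.8% at its lowest, to the left of the summit. Other such dips include 18.8% at 520 bp to the left and 21.8% at 220 bp to the right.

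The sequence under the summit occurs once in the genome when read in words of 24 bases or more, among the lengths examined. Of the 70 words of 32 bases within 50 bp of the summit, 0 occurred at more than 1 place of the nuclear genome on either strand, and the same held for all 311 such words of the pooled peak. This was also the case at 511 of the 545 optimal summits, or 93.8%, so it does not set nhr-12 apart. For words of 50 bases at the summit the count was 0 of 52. In the 300 printed bases, 6 of 281 words of 20 bases recurred elsewhere and 0 of 277 of 24 bases did. The reference assembly was searched, so copies that the assembly lacks are not covered, and copy number in strain OP120 was not measured.

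The most frequent word of 6 bases in the 300 bases was CTACAA, with 5 copies, a word noticed after the sequence was seen and therefore described without a test. On the plus strand it began 45 bp to the left and 124 bp to the right of the summit, and on the minus strand 7 bp to the left, at the summit base itself and 46 bp to the right. Some word with 5 or more copies was present in 31.6% of the optimal windows, so the number alone is not unusual. Windows with 5 or more copies of CTACAA were 13 of the 545 at optimal summits, or 2.39%, and 17 of the 19973 at promoters, or 0.0851%. The 13 include the nhr-12 window, from which the word was taken. Having at least 1 copy was about as frequent at optimal summits, 14.1%, as at promoters, 15.0%.

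Among the 20 strongest optimal peaks, 7 held 3 or more copies of CTACAA in their 300 bases, which is 35.0%, and among the other 525 peaks 9 did, or 1.71%. The word was taken from the nhr-12 window, which is 1 of the 7, and the cuts at 20 peaks and 3 copies were not set in advance. The shares therefore describe these peaks, and a link between the word and the signal was not tested. The 7 were nhr-12 with 5 copies, the peaks near soem-1 (10), Y87G2A.25 (9), C02F5.12 (3), nhr-87 (14), coa-5 (15) and eipr-1 (4). Within 50 bp of the summit, the soem-1 and Y87G2A.25 peaks held 0 copies and the C02F5.12 peak held 1. The others held 3 at nhr-12, 3 at nhr-87, 6 at coa-5 and 2 at eipr-1. The soem-1, Y87G2A.25 and eipr-1 peaks lie near each other in the genome, so the 7 may not be independent. The peaks near Y59C2A.3 and Y48G10A.3, at ranks 2 and 3, were not among the 7. Some of the 9 weaker peaks with 3 or more copies held many. There were 15 near Y43F8B.20 at rank 60 and 18 near C08E8.2 at rank 395.

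Windows of 101 bases at 5 optimal summits are shown to compare how CTACAA, in capitals on either strand, is arranged, with the nhr-12 window first. All are on the plus strand and hold no annotated UTR.
nhr-12, V:10084182-10084282: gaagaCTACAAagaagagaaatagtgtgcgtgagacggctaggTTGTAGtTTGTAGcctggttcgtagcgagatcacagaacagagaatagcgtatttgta
nhr-205, V:10081793-10081893: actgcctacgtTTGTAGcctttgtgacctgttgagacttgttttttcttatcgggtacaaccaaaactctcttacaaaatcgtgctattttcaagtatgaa
intron of cbs-2, II:2221656-2221756: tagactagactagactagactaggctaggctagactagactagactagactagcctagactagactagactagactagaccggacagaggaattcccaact
intron of nhr-87, IV:1624582-1624682: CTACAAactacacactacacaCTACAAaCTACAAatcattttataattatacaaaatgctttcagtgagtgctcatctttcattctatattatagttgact
Y43F8B.20, V:19550444-19550544: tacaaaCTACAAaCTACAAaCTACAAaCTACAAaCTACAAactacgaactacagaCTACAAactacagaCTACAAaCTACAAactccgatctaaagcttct
The Y43F8B.20 and nhr-87 windows are simple tandem repeats of the word and close variants in part of their length, the cbs-2 window is a tandem repeat of another word, and the nhr-12 window holds 3 copies in otherwise mixed sequence. Of these 3, the 2 nearest the summit are on the same strand and begin 7 bp apart, a spacing also found between neighbouring copies in the nhr-87 and Y43F8B.20 windows. The nhr-12 and nhr-205 windows share a run of 11 bases, GTTTGTAGCCT, which begins 2 bp to the left of the nhr-12 summit. It contains TTGTAG, which is CTACAA read on the other strand. The window at the R04B5.5 summit, the third optimal peak of the region, shared a run of 10 bases with the nhr-12 window. Of the 544 other optimal windows, 20 shared a run of 11 or more bases with the nhr-12 window, or 3.68%, and the median longest shared run was 7 bases.

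By likeness of log2 signal in the 2 replicates, the 5 optimal peaks closest to nhr-12 were the next 5 by pooled rank, and all were far from it. The gene was chosen for the highest pooled signal, so that its closest peaks had the next ranks largely follows from the choice. The peak near Y48G10A.3 was the closest, at a distance of 2.44 log2 units, with signals of 114 in replicate 1 and 123 in replicate 2. The peaks near soem-1 (79.8 and 106), Y87G2A.25 (89.6 and 97.2), C02F5.12 (75.2 and 97.8) and Y59C2A.3 (180.3 and 72.6) followed at 2.75, 2.83, 2.89 and 3.21. The likeness rests on 2 samples, and the distance was set mainly by the replicate 2 signal of nhr-12, 661.1, against 123 or less at these peaks.

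Position differed among these peaks. The nhr-12, Y87G2A.25, Y48G10A.3 and C02F5.12 summits were intergenic, 183, 330, 1506 and 6 bp upstream of the nearest protein-coding 5′ end. The summit nearest to Y59C2A.3, 1785 bp upstream of it, lay in an intron of cbs-2. The one nearest to soem-1 was 231 bp upstream of that gene and within ndx-8, in an intron. The peaks near Y48G10A.3, soem-1 and Y87G2A.25 lay close together on chromosome I, with summits at 13475691, 13500487 and 13528293.

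Among the nuclear receptor genes with an optimal summit in the promoter window, nhr-12 had the highest signal in the pool and in both replicates. In the pool this was fixed by the choice of the strongest optimal peak. The replicates make up the pool, so they are not separate evidence. An optimal summit lay between 1000 bp upstream and 500 bp downstream of the 5′ end of 7 of 274 such genes, or 2.55%, and of 480 of 19973 protein-coding genes, or 2.4%. After nhr-12 (791.7 in the pool), the others were nhr-256 (62.1), nhr-47 (61.7), nhr-48 (52.8), nhr-205 (48.5), nhr-255 (45.7) and nhr-142 (38.9). The peak counted for nhr-142 was at rank 544 of 545. Its summit was 548 bp upstream of nhr-142 and nearer to the 5′ end of another protein-coding gene. In replicate 1 nhr-12 had a signal of 137.7 and these 6 genes 10.6 to 32.8, and in replicate 2 nhr-12 had 661.1 and the 6 genes 19.2 to 35.8. The nhr-87 peak was not counted because its summit lay within an intron of that gene, more than 500 bp downstream of the 5′ end. In replicate 1 it was not far below nhr-12, which had 137.7, with 105 at nhr-87, while in replicate 2 nhr-12 had 661.1 and nhr-87 64.3, and in the pool 791.7 and 167. The summit nearest to nhr-62 was also outside the promoter window, with signals of 40.1 in replicate 1, 42.6 in replicate 2 and 90.6 in the pool. The same held for optimal summits nearest to nhr-3, daf-12, nhr-34 and nhr-17, with pooled signals of 52.1, 40.2, 39.7 and 39.3.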

How the data were processed

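ChIP-seq peaks of eGFP-tagged CEH-30 were analysed from 2 biological replicates of 1 group of late embryos, on ce11 (4 lists) and, for the optimal list, ce10. Per the deposited file descriptions, the authors called relaxed peaks and background on each replicate and on the pool, each against a control, and derived the optimal list by irreproducible discovery rate (IDR) analysis. Not given in the sources used here were the aligner, the peak caller and the IDR cutoff. Each deposited list holds the authors' signal per peak, used here to rank peaks within a list, a score that is below 0 for 27058 pooled peaks and was used as an alternative rank alone, and other columns (the start and the summit offset) that gave positions. No list holds read counts, so depth is unknown and no counting interval was given.

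Summits were placed on ce11 (1-based) with the Ensembl release 115 annotation of WBcel235 and sequence from the RefSeq genome of that build, with Python 3.11.15, numpy 2.4.6 and pandas 2.3.3. Peaks were matched between lists by an overlap of at least 1 bp, taking the strongest. Word searches and promoter counts were tested on simulated data. There were 0 tests between samples. The gene, its lists and words were chosen with earlier results of these data known. Named genes were nhr-12, genes that hold or adjoin a summit in its window, optimal ranks 2 to 5, the 5 most alike peaks and nuclear receptor genes with an optimal promoter summit. Genes outside this rule (those with repeated CTACAA, nhr-87, R04B5.11, yif-1, R04B5.1, F57A8.7, 21ur-13441, nhr-62, nhr-3, daf-12, nhr-34, nhr-17, ints-4, eif-3.J and hsp-16.48) were named after their values were seen. Alternatives were the replicate lists alone, the ce10 and pooled lists, the score, other windows and the start codon.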

Additional observations from a re-analysis of the deposited data

How the results depend on the processing

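The alternatives gave 34 values for 9 results, of which 22 moved by no more than 1 SD of the 2 replicate values, or by no more than 1.5 times for counts. For the ratio to the next highest peak that SD is wide, so a ratio without a lead falls within it. Leaving out either replicate gave ratios of the nhr-12 peak to the next highest of 0.764 to 5.38 and ranks of 2 (replicate 1 list alone) and 1 (replicate 2 list alone). The ce10 optimal and pooled relaxed lists both kept 3.18 and rank 1. Ranked by score, the nhr-12 peak tied with all 247 peaks at the highest value, so that column gives no order. The distance to the nhr-12 5′ end was 183 to 198 bp over the replicate summits and 210 bp to the start codon, and for R04B5.6 it was 917 to 932 bp and 1049 bp. Pooled summits numbered 6 within 5000 bp, 3 within 2000 bp and 5 to 11 in the replicate lists. G and C at the summit was 52.9% within 25 bp, 43.6% to 46.5% at the replicate summits and 37.0% over the 300 bases, the last chosen after seeing the data, and 42.8% within 100 bp. Nuclear receptor genes numbered 7, and 3 with a promoter window of 500 bp upstream alone. They numbered 5 in both replicate lists cut at the same length. The most repeated word had 5 copies in 300 bases and 3 in 101. The share of words at more than 1 place was 0 for words of 32 bases at the summit and in the whole peak and for words of 50 bases. No paired analysis was possible because the samples form 1 group. Depth is unknown, and 2 libraries limit every statement about the replicate difference.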

Other observations

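The nhr-12 peak was among 10 pooled peaks whose width was not 344 bp. The others were near Y59C2A.3 (235 bp), Y48G10A.3 (231 bp), soem-1 (207 bp), Y87G2A.25 (181 bp), nhr-87 (210 bp), eipr-1 (213 bp), ints-4 (86 bp), eif-3.J (144 bp) and hsp-16.48 (367 bp). The nhr-12 peak was 342 bp wide in the pool, 2 bp from the usual width, and 212 bp wide in replicate 1, where the usual width was 350 bp.

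The peak in an intron of cbs-2 showed the opposite pattern to nhr-12 in the replicates. It was the strongest of replicate 1, at 180.3, and ranked 8 in replicate 2, at 72.6, while the nhr-12 peak had 137.7 and 661.1. The ratio of replicate 2 to replicate 1 was 4.8 at nhr-12, 0.403 at the cbs-2 peak and 1.15 at the median of the optimal peaks. These values were picked out after they were seen, and their cause was not tested.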
